A study of Mus musculus with 8 samples.

Results

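Microglia at P21 were the cells that the authors' annotation of a mouse cortex single-cell RNA-seq table named microglia. They numbered 1893 of the 9965 cells kept at P21 and of the 60989 cells kept at all ages, or 19.0% of the P21 cells. The mice were wild-type C57BL/6 animals at postnatal day 21 with no treatment, and motor and somatosensory cortex were dissected as 1 tissue. They came from 3 libraries, each a pool of several animals, named here 6, 7 and 8 after the number that follows the cell barcode. Live cells had been sorted by a dye before capture in droplets, and the 3 P21 libraries held 2240 to 4864 kept cells with 7751963 to 17811960 UMIs (unique molecular identifiers, each a distinct captured transcript). The table gave UMIs per cell, genes detected per cell, the mitochondrial share of UMIs and the cluster of each cell, and no expression values were analysed here. The defining microglial genes Cx3cr1, P2ry12 and C1qa therefore could not be examined, and the name rests on the authors' annotation.

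Microglia are the resident macrophages of the brain parenchyma. They arise from yolk sac progenitors rather than from the neural lineage, divide within the growing brain, and in the postnatal cortex clear dying cells and take part in the pruning of synapses. Cx3cr1 encodes the receptor for fractalkine, P2ry12 a purinergic receptor that marks microglia in their surveying state, and C1qa a chain of the complement component that tags synapses and debris. Their RNA content is generally lower than that of large neurons or of myelin-forming cells.

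Microglia made up a different share of each P21 library. They were 328 of 2861 cells in library 6 (11.5%, exact 95% interval 10.3 to 12.7), 419 of 2240 in library 7 (18.7%, 17.1 to 20.4) and 1146 of 4864 in library 8 (23.6%, 22.4 to 24.8). Library 8 thus held most of the microglia, and the intervals of the 3 libraries did not overlap. These intervals are Clopper-Pearson intervals and cover counting error only. The mean share was 17.9% ± 6.09 (SD, n = 3). Among glia and pericytes alone, the shares were 12.6%, 19.3% and 25.4% in libraries 6, 7 and 8, in the same order. By transcripts rather than cells, microglia contributed 7.80%, 13.3% and 16.3% of the UMIs of these libraries (mean 12.5% ± 4.31, SD, n = 3), which was below their share of cells in 3 of 3 libraries. No cell was named microglia among 28537 cells at P1 or 22487 cells at P7, which allows shares of up to 0.0105% and 0.0133% by counting error alone. Clusters judged to be outliers had been taken out beforehand, P21 tissue was digested with more papain and every kept cell had at least 1000 genes, and the part of these steps in the shares was not tested.

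Some cell barcodes occurred in more than 1 library. Of the 1893 microglia, 18 (0.951%) shared a barcode with a cell of another P21 library, 147 (7.77%) with a cell of the larger P1 and P7 libraries and 164 (8.66%) with any other library. Only 1 barcode was shared by 2 microglia. The same counts are not given here for other cell types, so these shares cannot be called particular to microglia.

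Although the libraries differed in how many microglia they held, the depth of the microglia varied little from library to library. Median UMIs per cell were 2295.5 in library 6, 2256 in library 7 and 2271.5 in library 8, a mean of 2274 ± 19.9 (SD, n = 3). Median genes per cell were 1145, 1124 and 1177 (1149 ± 26.7, SD, n = 3), not far above the minimum of 1000. The deepest cell by genes had 3515, and UMIs ranged from 1387 to 9141. The authors downsampled the libraries to a common coverage, and UMIs per cell are relative to it.

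The mitochondrial share of microglial UMIs was low and varied little. Its median was 1.71% in library 6, 1.66% in library 7 and 1.72% in library 8, a mean of 1.70% ± 0.0298 (SD, n = 3). This corresponded to medians of 42, 39 and 41 mitochondrial UMIs per cell, obtained by multiplying share and UMIs and rounding. The next lowest of the 8 types compared was the oligodendrocyte precursor (OPC), with 91, 85 and 86 mitochondrial UMIs per cell. UMIs of other genes stood at medians of 2245.5, 2219 and 2227 per microglial cell, with 2 of the 7 other types lower in 3 of 3 libraries. Microglia were thus lowest in mitochondrial UMIs without being lowest in the rest. In each library the share was also below that of every other named P21 type with at least 10 cells, neurons included, whose lowest medians were 2.76% among 12 types in library 6, 3.23% among 9 in library 7 and 2.81% among 12 in library 8.

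Microglia were next compared with the 7 other types of glia and pericytes at P21 in the same libraries, since cells of 1 library share its depth. These were the oligodendrocyte lineage from OPC through committed precursors (COP) and newly formed (NFOL), myelin-forming (MFOL) and mature oligodendrocytes (MOL), the astrocytes (Astro), which support neurons and synapses, and the pericytes, which wrap capillaries. Each difference was taken within a library and tested over the 3 libraries with a two-sided exact sign-flip permutation test, whose smallest possible p is 0.25, so that no comparison could pass 0.05. The sizes and directions are therefore given as measured.

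In UMIs per cell, microglia were below 6 of the 7 types in 3 of 3 libraries. OPC stood lower, at 1951, 1817 and 1946 UMIs in libraries 6, 7 and 8, so that microglia exceeded them by 370 ± 60.8 (SD, n = 3). Astrocytes were close, at 2386, 2375 and 2385, and microglia lay below them by a small but even margin, with a difference of -108 ± 15.1 (SD, n = 3). Pericytes held 2443, 2695.5 and 3156, and COP 3542, 3667 and 4183.5. MFOL and MOL, which make myelin, had medians of 7080 to 8369.5 across the libraries. Against the equal-weight mean of the 7 types, microglia differed by -2520 ± 496 UMIs (SD, n = 3, exact permutation p = 0.25, adjusted p = 0.25). That value depended on the weight given to the myelin-forming stages, and with the cells of the 7 types pooled it was -805 ± 208 (SD, n = 3).

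In genes per cell, microglia were the lowest of the 8 types in 3 of 3 libraries. OPC, with fewer UMIs, still had more genes, at 1298, 1214 and 1317. Astrocytes stood at 1272.5, 1240 and 1273 genes and pericytes at 1240, 1283 and 1523. The microglial difference from the equal-weight mean of the 7 types was -771 ± 106 genes (SD, n = 3, exact permutation p = 0.25, adjusted p = 0.25), or -459.5 ± 126 (SD, n = 3) with their cells pooled. The nearest types were astrocytes, at -113 ± 15.9 (SD, n = 3), and OPC, at -128 ± 33.3 (SD, n = 3).

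In mitochondrial share, microglia were below each of the 7 types in 3 of 3 libraries. The nearest were NFOL, at 3.70%, 3.50% and 3.16% in libraries 6, 7 and 8, and COP, at 3.63%, 3.52% and 3.53%. Pericytes stood at 4.67%, 4.99% and 5.20%, and astrocytes, the highest, at 6.82%, 7.65% and 7.56%. No library median of any of these types came down to the microglial range. The difference from the equal-weight mean was -3.03 percentage points ± 0.148 (SD, n = 3, exact permutation p = 0.25, adjusted p = 0.25). Among cells with at least 1500 genes it was -1.91 ± 0.366 (SD, n = 3). Astrocytes had fewer than 20 such cells in libraries 6 and 7 and were left out of that mean. The 2 differences are thus not over the same types. Over all 32 comparisons with single types in these and the following measures, adjusted together, the exact permutation p was 0.25 for each.

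**Figure D1:**
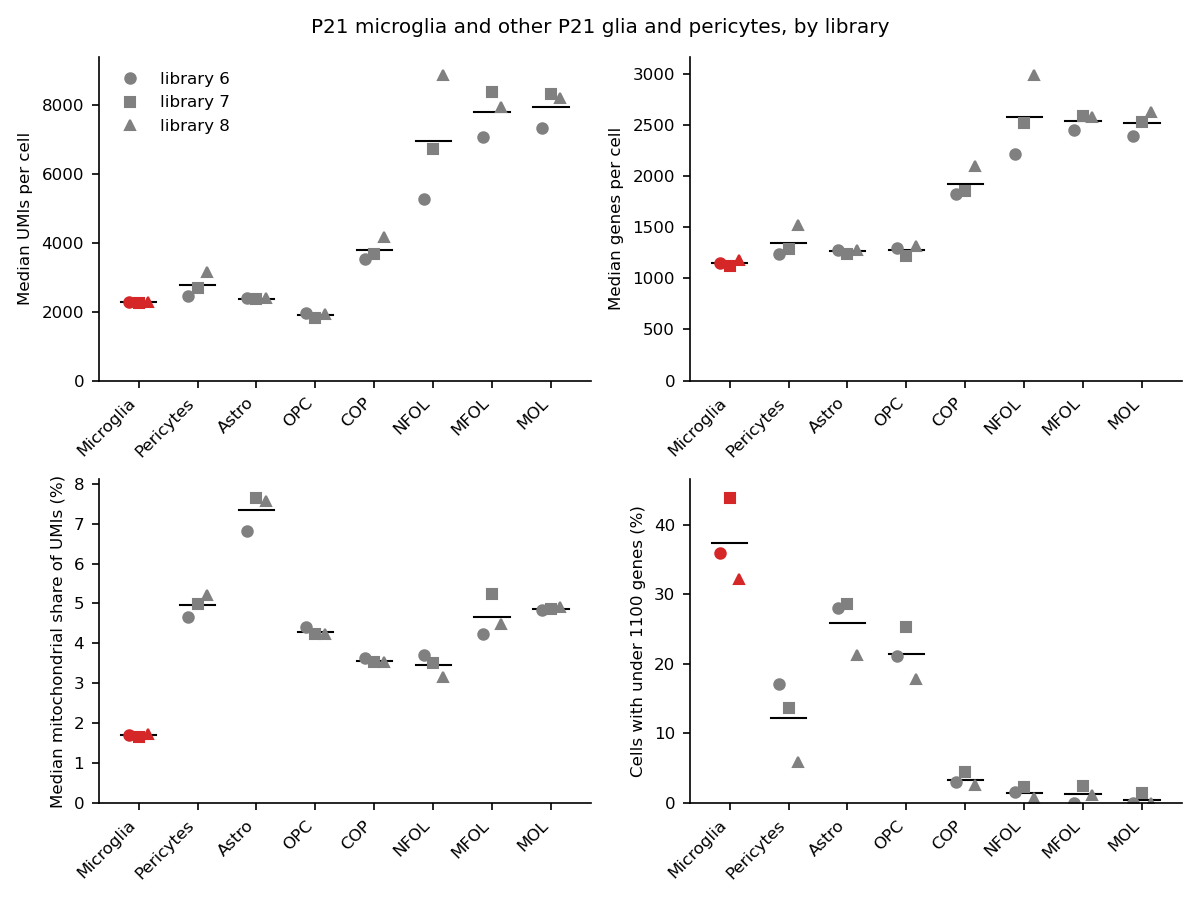
Median UMIs per cell, median genes per cell, median mitochondrial share of UMIs (percent) and share of cells with under 1100 genes (percent) on the vertical axes for 8 P21 cell types; each point is a library, the marker shape gives the library, the line is the mean over 3 libraries, and microglia are red. Microglia sit lowest in genes and in mitochondrial share (mean 1.70%) and highest in cells with under 1100 genes (mean 37.4%), while OPC lie below them in UMIs.

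Many microglia sat just above the minimum number of genes. With fewer than 100 genes over the minimum, that is under 1100 genes, were 36.0% of microglia in library 6, 43.9% in library 7 and 32.2% in library 8 (37.4% ± 5.98, SD, n = 3). Astrocytes followed at 28.0%, 28.6% and 21.2%, then OPC at 21.1%, 25.3% and 17.9% and pericytes at 17.1%, 13.7% and 5.95%. Microglia had the highest share in 3 of 3 libraries, and COP and the later stages stayed under 5%. The difference from the equal-weight mean of the 7 types was 27.9 percentage points ± 4.20 (SD, n = 3, exact permutation p = 0.25, adjusted p = 0.25). The fullest bin of 50 genes for microglia was the first above the minimum, 1000 to 1049 genes, which held 366 cells or 19.3%. The same bin was the fullest for astrocytes (12.3%) and OPC (10.3%), whereas for pericytes it was 1300 to 1349 genes. The fullest bin of microglia was thus the lowest that the minimum allowed, and medians of genes and UMIs describe cells with at least 1000 genes only.

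The number of genes was also low for the number of UMIs. Among cells with 2000 to 2500 UMIs, microglia had medians of 1115, 1100 and 1142 genes in libraries 6, 7 and 8, from 117, 188 and 460 cells. In the same window OPC had 1417, 1408 and 1449 genes and COP 1364, 1344 and 1411. Microglia thus lay below OPC by a near constant amount, with a difference of -306 ± 3.21 genes (SD, n = 3). The differences were -254 ± 13.2 from COP, -74.5 ± 31.5 from pericytes and -52.3 ± 31.0 from astrocytes (SD, n = 3 each). Microglia were below all 4 types that had enough cells in 3 of 3 libraries, and differed from their mean by -172 ± 14.4 genes (SD, n = 3, exact permutation p = 0.25, adjusted p = 0.25). In this window 40.2%, 49.5% and 32.8% of microglia had under 1100 genes, against none of the OPC and COP. In the windows of 1500 to 2000 and 2500 to 3000 UMIs, astrocytes had too few cells in library 7 and were left out. From the mean of OPC, COP and pericytes, microglia differed by -87.6 ± 16.7 genes at 1500 to 2000 UMIs (SD, n = 3). At 2500 to 3000 UMIs the difference was -246 ± 19.7 genes (SD, n = 3). These values are thus not over the same types as the difference of -172 genes. The lowest window also lay close to the gene minimum. There 83.4% of microglia, 71.3% of pericytes, 28.1% of COP and 22.9% of OPC had under 1100 genes (means over libraries). The part of the minimum in the smaller difference of that window was not tested.

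The annotation divided the microglia into 2 subclusters. P21_1_Microglia held 1657 cells, with 297, 368 and 992 in libraries 6, 7 and 8, and P21_9_Microglia held 236, with 31, 51 and 154. The smaller subcluster made up 9.45% of microglia in library 6 (exact 95% interval 6.51 to 13.1), 12.2% in library 7 (9.20 to 15.7) and 13.4% in library 8 (11.5 to 15.6). Its mean share was 11.7% ± 2.04 (SD, n = 3), the intervals overlapped and both subclusters were drawn from all 3 libraries. Clusters had been formed from the genes of these same cells, after the mitochondrial share and the UMI number had been regressed out, so the subclusters are compared as a description with no test. Which genes separate them could not be examined.

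The subclusters differed in the mitochondrial share. Its median was 1.63%, 1.59% and 1.60% in P21_1 and 4.33%, 3.91% and 3.66% in P21_9 in libraries 6, 7 and 8. The P21_9 value was the higher in 3 of 3 libraries, by 2.36 percentage points ± 0.315 (SD, n = 3), and the libraries of the subclusters did not overlap. In mitochondrial UMIs the medians were 40, 36.5 and 38 in P21_1 and 98, 92 and 105 in P21_9. The low mitochondrial share of microglia as a whole was thus that of P21_1, which held most of the cells and lay below all 7 other types in 3 of 3 libraries. P21_9 lay among them, between COP and OPC in libraries 7 and 8 and between MFOL and OPC in library 6. Taken alone, P21_9 differed from the equal-weight mean of the 7 types by -0.765 percentage points ± 0.420, against -3.13 ± 0.148 for P21_1 (SD, n = 3 each).

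Few single cells of either subcluster lay past the median of the other in this measure, but their ranges overlapped. With the libraries together, the 95th percentile of P21_1 was 3.78% and the 5th percentile of P21_9 was 1.72%. Of the P21_9 cells, 8 of 236 (3.39%) lay under the median of P21_1, and 81 of the P21_1 cells (4.89%) lay over the median of P21_9. A share over 5% was found in 5.05%, 2.17% and 2.92% of P21_1 cells and in 35.5%, 27.5% and 20.1% of P21_9 cells in libraries 6, 7 and 8. Read from the other side, P21_9 made up 1.32% of microglia with a mitochondrial share under 1%, 2.05% of those from 1 to 2%, 13.0% of those from 2 to 3% and 53.5% of those from 3 to 5%. From 5 to 10% the proportion was 52.3%, no higher than in the band before. About as many microglia of high mitochondrial share therefore fell in P21_1 as in P21_9, although P21_1 was the far larger subcluster.

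P21_9 cells spread their transcripts over more genes. UMIs per detected gene stood at medians of 2.02, 2.03 and 1.95 in P21_1 and 1.66, 1.63 and 1.68 in P21_9, a difference of -0.344 ± 0.0665 (SD, n = 3). P21_9 lay between OPC and astrocytes in this ratio in 3 of 3 libraries, and only OPC, at 1.52, 1.50 and 1.48, were lower. Median genes per cell were 1137, 1106 and 1155 in P21_1 and 1216, 1364 and 1574.5 in P21_9. P21_9 had more genes in 3 of 3 libraries, but by margins of 79, 258 and 419.5 that differed widely between them (252 ± 170, SD, n = 3). Without library 8 the mean margin was 168.5 genes.

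UMIs per cell gave no common direction. Their medians were 2311, 2247.5 and 2228 in P21_1 and 2047, 2379 and 2694.5 in P21_9. P21_9 was the lower in library 6 by 264 UMIs and the higher in libraries 7 and 8, by 131.5 and 466.5, so that the mean difference of 111 ± 366 (SD, n = 3) was within the spread between libraries. P21_1 was steady in depth across libraries, and the variation lay in P21_9. In mitochondrial share the order of the P21_9 libraries ran the other way, highest in library 6 and lowest in library 8.

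**Figure D2:**
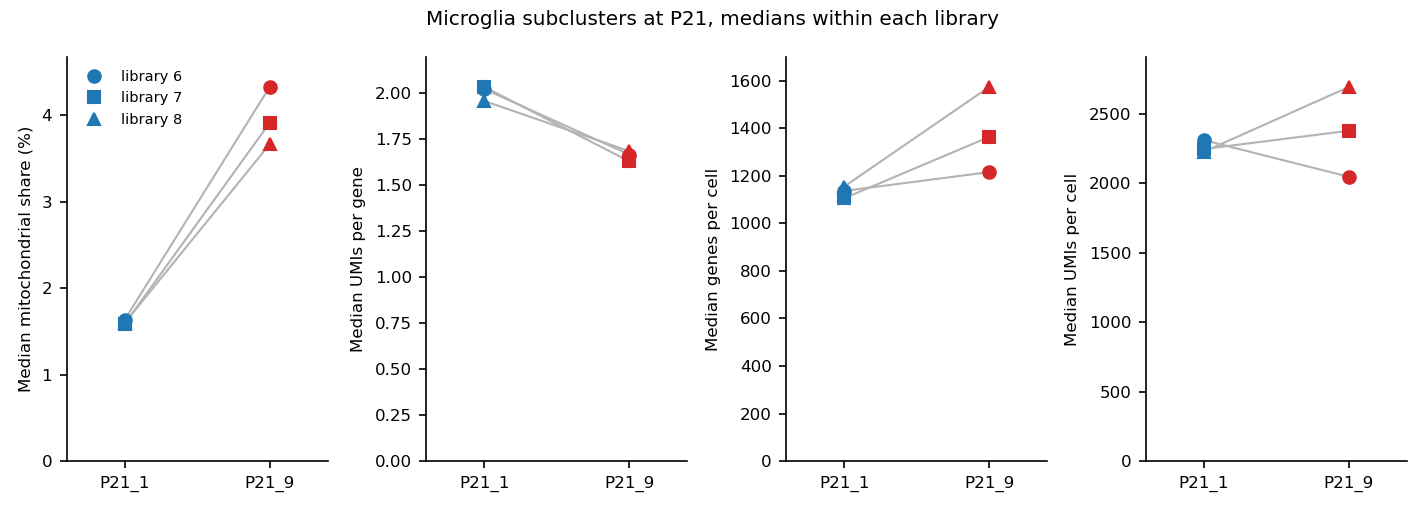
Median mitochondrial share of UMIs (percent), UMIs per detected gene, genes per cell and UMIs per cell (vertical axes) in subclusters P21_1 (blue) and P21_9 (red), with a line joining the values of each library. The mitochondrial share is 1.59 to 1.63% in P21_1 and 3.66 to 4.33% in P21_9, while the UMI lines run in both directions.

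These contrasts were also read in a narrower range of depth. Among cells with 2000 to 3000 UMIs, a range picked once the values were known, P21_1 had medians of 1142.5, 1123.5 and 1170 genes and P21_9 had 1350.5, 1496 and 1510, the latter from 14, 28 and 66 cells. The P21_9 excess of 307 ± 87.1 genes (SD, n = 3) was thus more even than over all cells. Median UMIs still differed within this range, with P21_9 above P21_1 by 131 ± 72.8 (SD, n = 3). In the same window the mitochondrial share was 1.65%, 1.54% and 1.56% in P21_1 and 3.87%, 3.90% and 3.89% in P21_9, a difference of 2.31 ± 0.0770 (SD, n = 3). The gap in mitochondrial share was therefore close to that over all cells.

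Within P21_1 the mitochondrial share was higher in deeper cells. Its library medians averaged 1.42% ± 0.0596 at 1500 to 2000 UMIs and 1.81% ± 0.0936 at 3000 to 4000 UMIs (SD, n = 3 each), and the second was the higher in 3 of 3 libraries, by 0.390 ± 0.152 percentage points. Over both subclusters together the difference was 0.343 ± 0.111. Pericytes had the same direction, with 1.64 ± 0.922, whereas the difference was -0.633 ± 0.538 in OPC and -1.68 ± 0.478 in COP (SD, n = 3 each). The values of pericytes, OPC and COP are of whole types, each a pair of clusters. The smaller pericyte cluster had lower median UMIs and a lower mitochondrial share in 3 of 3 libraries, and its part in the pericyte value was not tested. The lower window held only cells that reached 1000 genes with few UMIs. P21_9 had enough cells for the upper window in library 8 alone, with 3.01% there against 4.64% in the lower.

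Closeness to the gene minimum separated the subclusters as well. Under 1100 genes were 38.7%, 47.8% and 36.5% of P21_1 cells and 9.68%, 15.7% and 4.55% of P21_9 cells in libraries 6, 7 and 8. The difference was -31.0 percentage points ± 1.73 (SD, n = 3), nearly the same in each library. P21_1 had the highest share of the types in 3 of 3 libraries. P21_9 taken alone differed from the equal-weight mean of the 7 types by 0.520 ± 3.62 percentage points (SD, n = 3). That mean includes types with few such cells, from COP at 3.30% to MOL at 0.469%. P21_9 lay above 4, 5 and 4 of the 7 types in libraries 6, 7 and 8. The bin from 1000 to 1049 genes held 356 cells or 21.5% of P21_1, its fullest bin, whereas P21_9 was fullest at 1300 to 1349 genes, with 6.36% of its cells. The crowding of microglia at the minimum was mostly that of P21_1, as only 18 of the 671 microglia under 1100 genes belonged to P21_9.

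**Figure D3:**
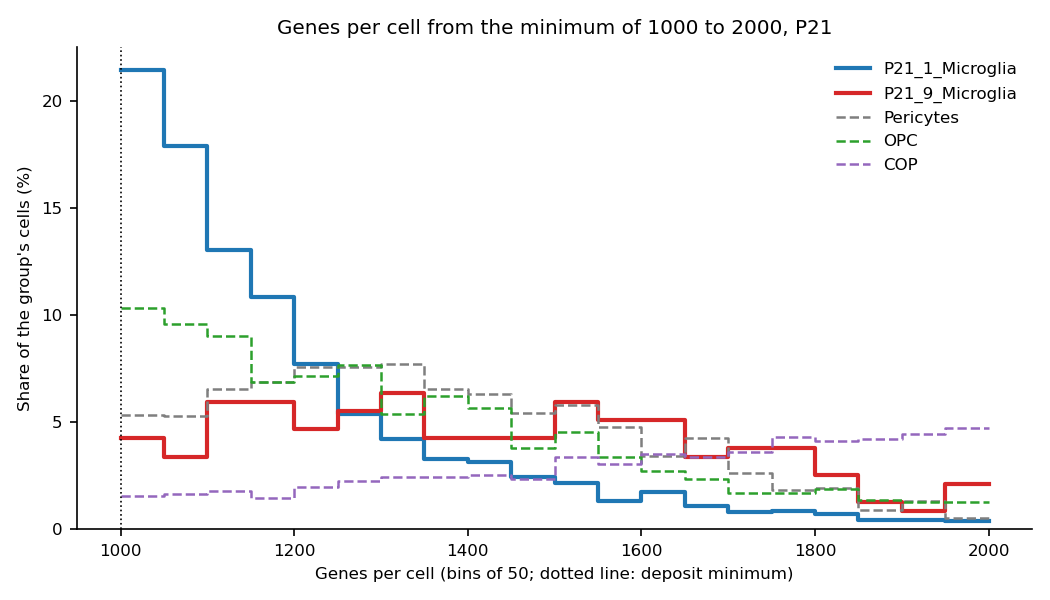
Share of each group's cells (vertical axis, percent) by genes detected per cell in bins of 50 (horizontal axis) for the microglial subclusters P21_1 and P21_9 and for pericytes, OPC and COP, all 3 P21 libraries together; the dotted line marks the minimum of 1000 genes. P21_1 starts at 21.5% in the first bin and falls from there, while no bin of P21_9 shown holds more than 6.36% of its cells.

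The makeup of the microglia changed with the number of genes. P21_9 made up 18 of 671 microglia with 1000 to 1099 genes (2.68%), 6.60% of those with 1100 to 1199 genes and 9.96% of those with 1200 to 1299 genes. The proportion was 17.2% at 1300 to 1499 genes and 32.8% at 1500 to 1999 genes. At 2000 genes or more, 41 of 52 microglia (78.8%, exact 95% interval 65.3 to 88.9) belonged to P21_9. Most of these cells came from library 8, which held 44 of the 52, and library 6 held only 3. In library 6 the proportion was 2.54% at 1000 to 1099 genes, then 12.3%, 12.8%, 12.7% and 15.6% in the 4 bands from 1100 to 1999 genes, and 33.3% of its 3 cells above these.

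**Figure D4:**
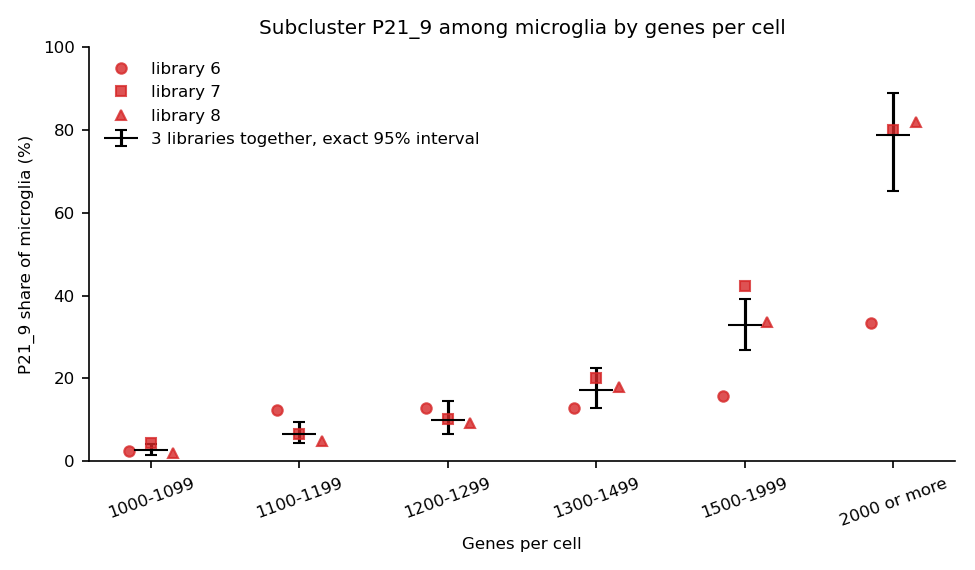
Share of microglia that belonged to subcluster P21_9 (vertical axis, percent) by genes per cell (horizontal axis); red points are single libraries, and the black bar is the 3 libraries together with its exact 95% interval, for counting error only. The share goes from 2.68% at 1000 to 1099 genes to 78.8% at 2000 genes or more, where library 6 has 3 cells.

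A higher minimum would therefore have removed the subclusters unequally. With at least 1200 genes P21_9 made up 14.0%, 25.7% and 25.7% of the remaining microglia in libraries 6, 7 and 8. With at least 1500 genes 15.6% of all microglia remained, P21_9 made up 17.1%, 46.0% and 43.6% of them, and microglia were 5.26% ± 3.39 (SD, n = 3) of the P21 cells. What a lower minimum would have added could not be read from these cells.

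Cells far above the typical depth were few and mostly of P21_9 by genes. At least 2000 genes were detected in 11 of 1657 P21_1 cells (0.664%) and in 41 of 236 P21_9 cells (17.4%). Over 5000 UMIs were found in 18 P21_1 cells (1.09%) and 7 P21_9 cells (2.97%). Doublets, droplets that captured more than 1 cell, add genes and UMIs together, and their part in these cells was not tested.

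Other types annotated as a pair of clusters gave a measure of how far clusters within a type usually lay apart. The smaller minus the larger cluster differed in mitochondrial share by 0.587 percentage points ± 0.118 in OPC, -0.398 ± 0.302 in COP, -0.568 ± 0.778 in MFOL, -0.726 ± 0.441 in astrocytes and -1.92 ± 0.412 in pericytes (SD, n = 3 each). The microglial difference of 2.36 ± 0.315 was larger in size than these means, and only the pericyte pair came near it, with the opposite sign. In libraries 6 and 7 the microglial pair lay further apart than the pericyte pair. In library 8 the pericyte pair lay further apart, at -2.30 against 2.07 for microglia. The smaller clusters of MFOL and astrocytes held as few as 8 and 9 cells in a library. In UMIs per detected gene the microglial pair differed by -0.344 ± 0.0665, the pericyte pair by -0.312 ± 0.0949 and the OPC pair by 0.00674 ± 0.0179 (SD, n = 3 each). The smaller pericyte cluster, unlike P21_9, had fewer genes than the larger cluster in 3 of 3 libraries.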

How the data were processed

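Droplet single-cell libraries (10x Genomics 3' chemistry) were made by the authors from pooled wild-type mice. Live cells were sorted as DAPI-negative and Vybrant DyeCycle Ruby-positive, and the labels' protocol text also describes a tdTomato sort. Reads were processed with Cell Ranger 3.0.1, libraries were joined and thinned to a like coverage per cell, and cells were filtered and clustered in Seurat. Per their methods, cells with 1000 to 6000 genes, up to 15000 UMIs and under 10% mitochondrial UMIs were kept, and 0 cells of the table lay beyond them. The deposited UMIs per cell are counts, and the mitochondrial share was deposited as a fraction and turned into percent here. Genes per cell, age, cluster and cell type were deposited beside them. Treatment of doublets was not given in the sources used here. Doublets were not called.

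Microglia were the cells of that annotated type, and all clusters and types compared are named. The members and lists were chosen with earlier results of these data known. Libraries were taken from the number after each barcode. Which P21 sample each library is was not assigned. Libraries are pools, so p-values concern pools rather than single animals. With 3 libraries the sign-flip p is 0.25 whenever all differences share a sign, whatever their size or spread. Intervals cover counting error only. Medians were taken per library for types with at least 20 cells in every library (10 in a UMI window). Within-library differences were tested with a two-sided exact sign-flip permutation test with Benjamini-Hochberg adjustment over 5 measures, and single types over 32 comparisons. Tests were tested on simulated data. Mitochondrial UMIs, share times UMIs, came out whole within 0.001 in 78.6% of microglia and were rounded. Alternatives were other types, weights, windows, minimums and means, an unpaired exact test, and each library left out. Comparisons of P21_9 with P21_1 by sign, each subcluster against other types, and the trend with UMIs were chosen after seeing the data. Scripts ran in Python 3.11.15, using pandas 2.3.3 and numpy 2.4.6 for tables, scipy 1.17.1 for intervals and matplotlib 3.10.9 for plots.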

Additional observations from a re-analysis of the deposited data

How the results depend on the processing

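Of 104 recomputed values, 2 reversed, 6 moved by at least the SD between libraries and 96 were counted as unchanged. Results given with a test were counted as unchanged wherever the sign held, whatever the size. Some of these changed in size: with P21_9 alone the difference in mitochondrial share was -0.765 percentage points against -3.03. With the cells of the other types pooled, that in UMIs was -805 against -2520. The unpaired test and the limit of 10 cells per subcluster repeated the main values. The microglial share of P21 cells was 5.26% among cells with at least 1500 genes, and 15.1 to 21.1% with a library left out. The gap between subclusters in cells under the gene limit, 31.0 percentage points at 100 genes over the minimum, was 18.4 at 50 and 37.5 at 200 genes over it; as P21_9 minus P21_1 it was -18.4 and -37.5, and -26.7 among cells with 2000 to 3000 UMIs. The UMI difference of P21_9 minus P21_1 reversed to -241.5 among cells with at least 1200 genes, in the 2 libraries with enough cells, and ran from -66.25 without library 8 to 299 without library 6. The cause of these changes was not tested. The unpaired exact permutation test of microglia against the other types (7, or 4 for genes at 2000 to 2500 UMIs) gave its smallest p, 0.1, for each of the 5 measures. No value was had for genes at 2000 to 2500 UMIs with at least 1500 genes, or there for P21_9 alone, for want of cells. With 3 libraries no p under 0.25 is possible in the sign-flip test, and cells below 1000 genes were not analysed here. Differences between types were paired within libraries. By the replicate numbers of the labels, no paired analysis was possible because the libraries of the cell table carry no replicate number and no ages were compared by a test.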

Other observations

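The P21 cells left without a type by the annotation, 12, 17 and 20 in libraries 6, 7 and 8, had median mitochondrial shares of 2.14%, 1.88% and 2.07%. These values lay between those of the microglial subclusters P21_1 and P21_9 in 3 of 3 libraries. Their median UMIs were 3355.5, 3187 and 2311.5 and their median genes 1725, 1667 and 1365, above those of microglia as a whole in each library.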
